A study of Homo sapiens with 8 samples.

Results

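The 7 genes described here encode the enzymes, carrier and receptors of the vitamin D system: CYP2R1, CYP27B1, CYP24A1, GC, VDR, RXRA and RXRB. They were chosen by symbol, and all 7 were found by Ensembl gene identifier among the 20897 genes of the deposited tables. The cells were HepG2, a long-established line from a human hepatocellular carcinoma that stands in for hepatocytes, and their RNA was sequenced. Vehicle alone (1% DMSO) was given to 3 libraries' cells, the soy isoflavone genistein to 3, and BMP6 at 50 ng/ml, a bone morphogenetic protein that signals iron status to the liver, to 2. Treatment lasted 18 h in low serum, and the genistein and BMP6 wells held the same 1% DMSO. Genistein was used at 10 micromolar according to the series design; the treatment protocol writes millimolar instead, and the dose is therefore uncertain. Each library is called a biological replicate in the series design, and all come from 1 cell line.

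Vitamin D is inactive until it has been hydroxylated, first in the liver and then mostly in the kidney. CYP2R1 is the main enzyme of the first step, in the liver, and gives calcidiol, the circulating form; CYP27B1, known mostly from the kidney, turns calcidiol into the hormone calcitriol. CYP24A1 breaks down both. GC is the plasma carrier of vitamin D metabolites and is secreted by hepatocytes. Calcitriol binds VDR, a nuclear receptor that pairs with a retinoid X receptor (RXRA or RXRB) on DNA, and CYP24A1 is the best known gene that this pair switches on.

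Levels are given in FPKM, fragments scaled to transcript length and to library size by the authors, so that genes can be compared with each other. How well short reads can tell the members apart was described from transcripts of GENCODE release 29 (GRCh38). The most alike ungapped stretch of 60 coding bases is shown for the pair of retinoid X receptors and for the pair of mitochondrial hydroxylases, because their levels are set side by side below. Bases that differ from the partner are in capitals.
RXRA: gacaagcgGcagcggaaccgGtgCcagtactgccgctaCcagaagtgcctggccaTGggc
RXRB: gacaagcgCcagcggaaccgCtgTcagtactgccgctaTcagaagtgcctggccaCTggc
CYP24A1: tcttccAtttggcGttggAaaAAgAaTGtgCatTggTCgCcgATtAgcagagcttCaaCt
CYP27B1: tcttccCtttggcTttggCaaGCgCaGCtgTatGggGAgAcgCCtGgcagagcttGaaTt
The receptor stretches (coding bases 538 to 597 of RXRA and 748 to 807 of RXRB) were identical at 54 of 60 positions. The hydroxylase stretches (coding bases 1356 to 1415 of CYP24A1 and 1335 to 1394 of CYP27B1) were identical at 42 of 60. No run of 31 bases of CYP24A1, CYP2R1 or GC transcripts occurred in a transcript of another gene. Of the distinct 31-base runs of RXRB, 5.4% were shared, all with SLC39A7, a zinc transporter gene 171 bases away. Of those of CYP27B1, 2.31% were shared, all with its neighbour METTL1, and of those of VDR and RXRA 2.2% and 0.679%. Reads from such runs cannot be assigned to 1 gene by sequence alone. Whether strand would separate them was not examined, and the sources used here do not give the strand setting.

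The libraries differ in ways that touch the low members. FPKM totals ranged from 1704599 to 3105197 per library, and the number of reads behind them is unknown. Median FPKM over all genes was lowest in genistein 2 (0.722) and DMSO 1 (3.9), against 4.14 to 8.48 in the other 6 libraries. These 2 libraries also had the most tested genes listed at 0 (2167 and 1679, against 356 to 962). All 10 hepatocyte markers were detected, and their summed level was 178610 to 222921 FPKM in DMSO, 134012 to 215327 after genistein and 205765 to 226164 after BMP6. Of these 10, 1 passed after genistein, where 12.1% of all tested genes passed, so this count is near the background. It was TTR, which fell from 7162 to 8195 FPKM in DMSO to 822 to 1576 FPKM (limma adjusted p = 0.0193, up to 0.0887 over the alternatives). APOA1, at 50517 to 58896 FPKM in DMSO and 3983 to 12742 FPKM after genistein, did not pass (limma adjusted p = 0.0895). After BMP6 none of the 10 passed, where 0.837% of all tested genes did. Within that sum 5 log2 changes were positive and 5 negative, from -2.15 for APOA1 to 1.71 for ALB. All 5 kidney tubule markers (LRP2, CUBN, SLC34A1, UMOD and AQP2) were listed at 0 in every library. HAMP, the hepcidin gene that the series is about, was listed at 0 in DMSO, at 22.2 to 34.4 FPKM after genistein and at 2563 and 6425 FPKM after BMP6.

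CYP24A1, the enzyme that breaks down calcidiol and calcitriol, rose after both treatments. CYP24A1 (ENSG00000019186; hg18, chromosome 20, 52203395 to 52223931) was listed at 0 in DMSO 1 and 2 and at 1.79 FPKM in DMSO 3. The genistein libraries 1, 2 and 3 had 19.4, 14.7 and 25.8 FPKM, and the BMP6 libraries 1 and 2 had 80.3 and 97.3 FPKM. Every genistein library was above every DMSO library, and both BMP6 libraries were above every genistein library. How many of all tested genes separate in this way was not counted. The mean was 20.0 ± 5.56 FPKM (SD, n = 3) after genistein and 88.8 ± 12.1 FPKM (SD, n = 2) after BMP6. In DMSO it was 0.597 ± 1.03 FPKM (SD, n = 3), a value that rests on DMSO 3. A listed 0 can be a failed estimate, and DMSO 1 had 1679 tested genes at 0. The changes below take the zeros as measured values.

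Expressed as log2(FPKM + 1), a measure that makes changes of low genes look smaller, CYP24A1 rose by 3.86 ± 0.51 (SE) after genistein (limma adjusted p = 0.00611), 14.5-fold in FPKM + 1. After BMP6 it rose by 5.99 ± 0.57 (limma adjusted p = 0.00751), 63.5-fold in FPKM + 1. It was the single member that passed the threshold of 0.05 in either comparison, 1 of 5 tested, where 12.1% of all tested genes passed after genistein (6.11% higher) and 0.837% after BMP6 (0.34% higher). Both comparisons use the same 3 DMSO libraries. CYP24A1 met the requirement of 1 FPKM in 2 libraries through its treated libraries, and its DMSO level left little room for a fall. With a pseudocount of 0.1 in place of 1, the log2 change was 6.20 after genistein and 8.38 after BMP6. Without DMSO 2 the BMP6 change was 5.74 and no longer passed (limma adjusted p = 0.0777), while the genistein change passed in all 15 alternative fits (limma adjusted p from 0.00382 to 0.0431).

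The level after genistein was lower than after BMP6 by a log2 difference of -2.13 ± 0.57, 4.37-fold in FPKM + 1, with a 95% confidence interval from -3.42 to -0.83. This difference did not pass the threshold (limma adjusted p = 0.133), and 1.39% of all tested genes passed in that comparison. No member passed between the treatments in limma, and at an unadjusted p under 0.05 there was 1, CYP24A1. The difference kept its sign in all 15 alternatives, from -2.47 to -1.93, and passed in none (limma adjusted p from 0.0701 to 0.508). Taken alone, CYP24A1 had a two-sided exact permutation p of 0.1 between genistein and DMSO and of 0.2 in both comparisons with BMP6 (0.75 adjusted over 15 member tests). Groups of these sizes allow no smaller values.

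**Figure D1:**
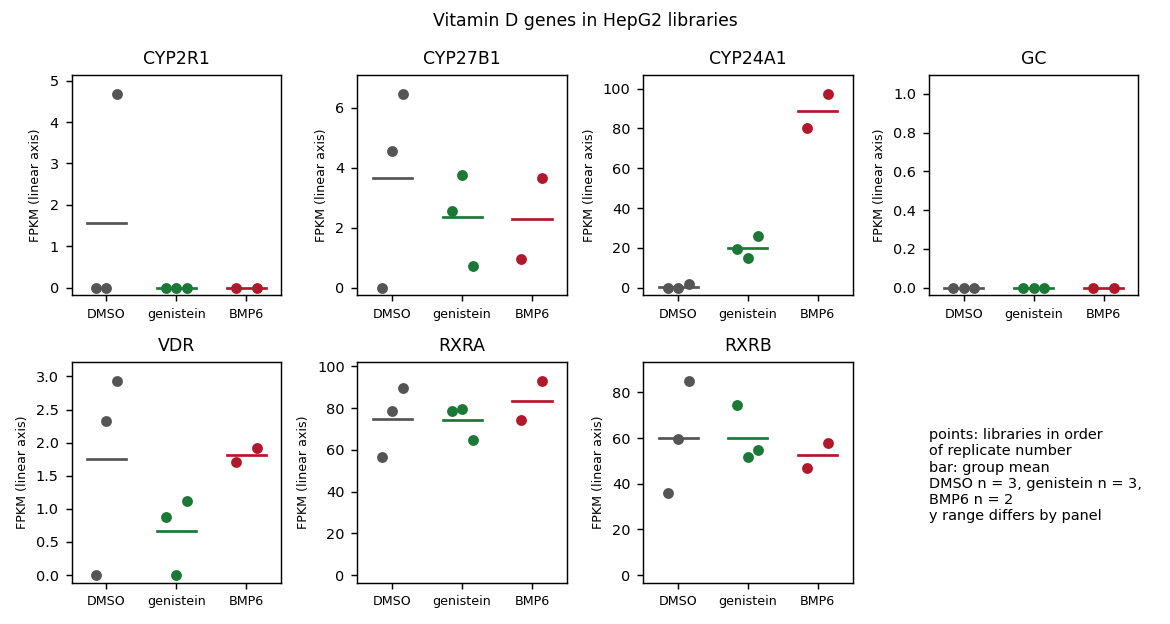
FPKM of the 7 vitamin D genes on linear axes, 1 panel per gene with its own range; points are libraries in order of replicate number and bars are group means (DMSO n = 3, genistein n = 3, BMP6 n = 2). CYP24A1 lies at 0 to 1.79 FPKM in DMSO, 14.7 to 25.8 after genistein and 80.3 to 97.3 after BMP6, while the groups of RXRA and RXRB overlap and GC is at 0 throughout.

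Markers of other cell types were read beside this result. Those tested were 3 biliary, 3 leukocyte or macrophage and 1 fibroblast marker. After BMP6 none of them passed in limma, where 0.837% of all tested genes passed, so this is near the background. After genistein 1 biliary marker fell, 1 macrophage marker rose and 1 fell. Over all tested genes 6.11% rose and 5.96% fell after genistein. The biliary list (KRT7, KRT19, SOX9, EPCAM, CFTR) had summed levels of 1471 to 2256 FPKM in DMSO, 526 to 1118 after genistein and 314 to 2115 after BMP6, with CFTR listed at 0 throughout. SOX9 fell by 2.30 on the log2 scale after genistein (limma adjusted p = 0.0179, up to 0.0827 over the alternatives), and its change after BMP6 was -2.46 (limma adjusted p = 0.068). EPCAM and KRT19 went opposite ways without passing, with log2 changes of -1.62 and 0.59 after genistein and -2.04 and 0.79 after BMP6. The leukocyte and macrophage list had sums of 3250 to 4859, 1242 to 1955 and 1562 to 2401 FPKM in the same order, with the defining markers PTPRC and CD3E at 0. Nearly all of that sum was LYZ, which fell by 1.58 after genistein (limma adjusted p = 0.0448), whereas CD68 rose by 1.18 (limma adjusted p = 0.0406) and CD14 had a log2 change of 3.86 that did not pass (limma adjusted p = 0.0604). The LYZ and CD68 calls were lost in 10 and 7 of 15 alternatives. Of 5 fibroblast markers 4 were at 0 in every library, and the fifth, PDGFRB, stood at 1.88 to 4.91 FPKM in DMSO, 0 to 2.92 after genistein and 14.3 to 19.5 after BMP6, without passing (limma adjusted p = 0.177 after BMP6). Endothelial KDR and TEK were at 0 in every library. Endothelial CDH5 and VWF were above 0 only in BMP6 1, at 1.01 and 0.697 FPKM. None of these endothelial markers was tested. The part of these markers in the CYP24A1 result was not tested. In bulk RNA, fewer cells of a type and less RNA per cell cannot be told apart.

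CYP2R1 and CYP27B1, members that make calcidiol and calcitriol, were low. Neither showed a change that passed. CYP2R1 (ENSG00000186104; hg18, chromosome 11, 14856142 to 14870327), the main calcidiol-forming enzyme, was listed at 4.68 FPKM in DMSO 3 and at 0 in the other 7 libraries. It missed the requirement of 1 FPKM in 2 libraries and was not tested; with no filter its log2 change was -0.84 after either treatment (limma adjusted p = 0.433 and 0.558), a value that rests on that 1 DMSO library. A listing at 0 in these tables does not show that a transcript was absent.

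CYP27B1 (ENSG00000111012; hg18, chromosome 12, 56442385 to 56447243), the calcitriol-forming enzyme, stood at 0, 4.57 and 6.47 FPKM in DMSO 1, 2 and 3. The genistein libraries 1, 2 and 3 had 2.56, 3.76 and 0.725 FPKM, and the BMP6 libraries 1 and 2 had 0.959 and 3.66 FPKM. The 3 groups overlapped, and the lowest value was in DMSO 1. The log2 change was -0.17 ± 0.84 after genistein (95% confidence interval -2.10 to 1.76, limma adjusted p = 0.915). It was -0.20 ± 0.94 after BMP6 (-2.35 to 1.96, limma adjusted p = 0.927). The sign of either change turned without DMSO 2, without DMSO 3 and with a pseudocount of 0.1. It also turned without genistein 3 for the genistein change and without BMP6 1 for the BMP6 change. Without DMSO 1, genistein 2 and BMP6 1 together the genistein change was -1.38 (limma adjusted p = 0.0762).

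Set side by side, the catabolic CYP24A1 lay below the activating CYP27B1 in DMSO 2 and 3 and above it in every treated library. In DMSO 1 both were listed at 0, so that library gives no order. The level of CYP24A1 minus that of CYP27B1, as a difference of log2(FPKM + 1), was 0, -2.48 and -1.42 in DMSO 1, 2 and 3. It was 2.52, 1.72 and 3.96 in genistein 1, 2 and 3, and 5.37 and 4.40 in BMP6 1 and 2. In both BMP6 libraries CYP24A1 was the highest of the 7 members, above 74.6% of all tested genes at most, and in the genistein libraries it ranked just below RXRA and RXRB. This difference carries the CYP24A1 change already described and was not tested again.

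GC (ENSG00000145321; hg18, chromosome 4, 72826296 to 72868798), the vitamin D binding protein and a major product of liver, was listed at 0 in all 8 libraries with an OK status. Of its albumin gene family, AFM, the gene of afamin, was likewise at 0 in all 8. ALB, the gene of serum albumin, stood at 17949 to 40448 FPKM in DMSO, 45780 to 61916 after genistein and 59633 and 143115 after BMP6. AFP, the fetal member, stood at 6231 to 12244, 8009 to 11945, and 25103 and 33948 FPKM in the same order. Neither ALB nor AFP passed in a limma comparison (0 of 2; at an unadjusted p under 0.05, none after genistein and 1, AFP, after BMP6).

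VDR, the calcitriol receptor, was near the bottom of the measured range. VDR (ENSG00000111424; hg18, chromosome 12, 46521589 to 46585081) stood at 0, 2.33 and 2.93 FPKM in DMSO 1, 2 and 3. The genistein libraries 1, 2 and 3 had 0.884, 0 and 1.12 FPKM, and the BMP6 libraries 1 and 2 had 1.7 and 1.92 FPKM. The zeros fell in DMSO 1 and genistein 2, the libraries with the most tested genes at 0. The log2 change was -0.57 ± 0.64 after genistein (95% confidence interval -2.04 to 0.90, limma adjusted p = 0.581) and 0.25 ± 0.72 after BMP6 (-1.39 to 1.90, limma adjusted p = 0.871). Both BMP6 libraries were above all 3 genistein libraries, but the difference of -0.82 ± 0.72 did not pass (limma adjusted p = 0.668). The share of all tested genes that separate in this way was not counted. The genistein change ranged from -1.19 without DMSO 1 (limma adjusted p = 0.156) to -0.20 without DMSO 3. Without DMSO 1 the BMP6 change was -0.36, of the opposite sign, and neither sign passed.

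The partners of VDR were far higher and showed no change that passed. RXRA (ENSG00000186350; hg18, chromosome 9, 136358137 to 136472250) stood at 56.4, 78.5 and 89.7 FPKM in DMSO 1, 2 and 3, at 78.4, 79.6 and 64.8 after genistein and at 74.2 and 92.9 after BMP6. Its log2 change was 0.01 ± 0.30 after genistein (95% confidence interval -0.68 to 0.70, limma adjusted p = 0.992) and 0.17 ± 0.34 after BMP6 (-0.60 to 0.94, limma adjusted p = 0.806). The 3 groups overlapped, and the lowest library was DMSO 1.

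RXRB (ENSG00000204231; hg18, chromosome 6, 33269343 to 33276410) stood at 35.9, 59.4 and 84.9 FPKM in DMSO 1, 2 and 3, at 74.3, 51.7 and 54.7 after genistein and at 47.0 and 57.8 after BMP6. Its log2 change was 0.07 ± 0.38 after genistein (95% confidence interval -0.80 to 0.94, limma adjusted p = 0.923) and -0.12 ± 0.42 after BMP6 (-1.09 to 0.85, limma adjusted p = 0.901). All of these groups overlapped, and the DMSO libraries alone spanned the whole range. RXRA was above RXRB in all 8 libraries, by a ratio from 1.05 in genistein 1 to 1.61 in BMP6 2. The third receptor of the family, RXRG, was listed at 0 in every library. Log2 changes of RXRA and RXRB beyond 1.09 against DMSO lie outside these intervals, whereas the intervals of VDR and CYP27B1 are wider.

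**Figure D2:**
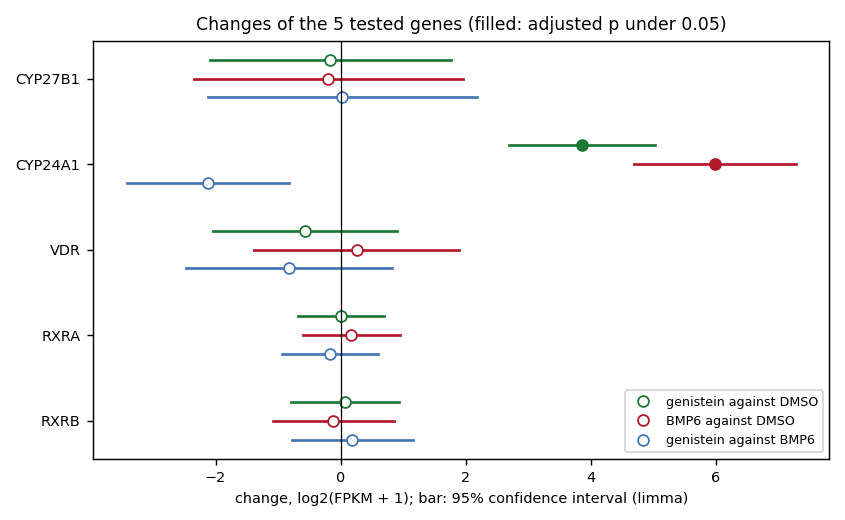
Change of each of the 5 tested genes on the log2(FPKM + 1) scale with its 95% confidence interval from limma, for 3 comparisons; filled points passed an adjusted p of 0.05. The 2 filled points are CYP24A1 after genistein (3.86) and after BMP6 (5.99), and the intervals of CYP27B1 and VDR are wider than those of RXRA and RXRB.

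In DMSO the members fell into 2 ranges of level. RXRA (56.4 to 89.7 FPKM) and RXRB (35.9 to 84.9 FPKM) overlapped each other and lay above all the rest. CYP27B1 (0 to 6.47 FPKM), CYP2R1 (0 to 4.68 FPKM), VDR (0 to 2.93 FPKM) and CYP24A1 (0 to 1.79 FPKM) overlapped among themselves, and GC was at 0. After BMP6, CYP24A1 (80.3 and 97.3 FPKM) overlapped the range of RXRA (74.2 and 92.9 FPKM), and RXRB (47.0 and 57.8 FPKM) lay below both.

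Other genes of the pathway were taken from lists of its known parts. Of 12 tested genes of vitamin D supply, uptake and electron transfer, 3 fell after genistein and none rose (background: 5.96% of all tested genes fell), with a median log2 change of -0.51 against 0.05 over all tested genes. DHCR7, a reductase of cholesterol synthesis that uses up the precursor from which skin makes vitamin D, fell from 311 ± 56.3 to 113 ± 14.4 FPKM (SD, n = 3 each; limma adjusted p = 0.0242). SULT2A1, a steroid sulfotransferase, fell from 194 ± 36.5 to 80.3 ± 24.4 FPKM (limma adjusted p = 0.0406). DAB2, an endocytic adaptor that works with the megalin receptor, fell from 173 ± 6.66 to 39.1 ± 4.69 FPKM (limma adjusted p = 0.0124). Its receptor genes LRP2 and CUBN were at 0 in every library. DHCR7 and SULT2A1 lost the threshold when any single DMSO or genistein library was left out and DAB2 without DMSO 2 or genistein 3. The highest limma adjusted p over all alternatives was 0.112, 0.141 and 0.0647 for these genes. The count of 3 ranged from 0 to 3 over the fits without 1 library, and it was 0 without DMSO 2 or without genistein 3.

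After BMP6, 1 of these 12 fell and none rose (background: 0.498% of all tested genes fell; median log2 change 0.47, against -0.03 over all tested genes). It was DAB2, at 18.1 and 44.2 FPKM in BMP6 1 and 2 (limma adjusted p = 0.0349), which passed in 6 of 15 alternatives (adjusted p up to 0.197). Between the treatments, DHCR7 differed by -1.96 ± 0.35 on the log2 scale, the genistein level being the lower (limma adjusted p = 0.0383). It passed in 7 of 15 alternatives (adjusted p up to 0.215). The next genes are named for their role, after their values were seen. CYP27A1, a mitochondrial enzyme that can also form calcidiol, was the most abundant hydroxylase of the pathway, at 634, 771 and 810 FPKM in DMSO. It stood at 295 to 530 FPKM after genistein and 180 and 574 FPKM after BMP6, and its log2 changes of -0.93 ± 0.46 and -1.19 ± 0.52 did not pass (limma adjusted p = 0.213 and 0.265). POR, the electron donor of the microsomal enzymes including CYP2R1, stood at 478 to 656 FPKM in DMSO and 1085 to 1387 after genistein, without passing (limma adjusted p = 0.0975). FDXR and FDX1, which feed electrons to CYP24A1, CYP27A1 and CYP27B1, did not pass either (log2 changes 0.44 and -0.12 after genistein, 1.17 and -1.08 after BMP6).

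Textbook VDR target genes other than CYP24A1 were mostly not measured. Of 30 found in the tables, 16 were at 0 in all 8 libraries, among them the calcium channel genes TRPV5 and TRPV6, the calcium binding gene CALB1 and the antimicrobial peptide gene CAMP. Of the 13 that were tested, 1 rose and 1 fell after genistein, where 6.11% of all tested genes rose and 5.96% fell, a share near the background. After BMP6 2 rose, against 0.34% of all tested genes. IGFBP3, which binds insulin-like growth factors in plasma, was listed at 0 in all DMSO and BMP6 libraries while genistein 1, 2 and 3 had 64.2, 39.0 and 34.0 FPKM (against DMSO limma adjusted p = 0.00151, against BMP6 0.00305). IGFBP3 met the requirement of 1 FPKM in 2 libraries only through genistein, so only a higher level after genistein could be called. The gene that fell was SULT2A1, already described among the supply genes. Median log2 changes of the 13 were 0.85 after genistein and 0.50 after BMP6, against 0.05 and -0.03 over all tested genes.

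SPP1, the gene of osteopontin, stood at 87.1, 200.2 and 202 FPKM in DMSO, 378, 296 and 410 after genistein and 2553 and 1528 after BMP6. Its log2 change was 3.69 ± 0.47 after BMP6 (limma adjusted p = 0.0209) and 1.23 ± 0.42 after genistein (limma adjusted p = 0.0939), and the treatments differed by -2.46 ± 0.47 (limma adjusted p = 0.0499). HSD17B2, which inactivates oestradiol, stood at 52.0, 72.4 and 87.7 FPKM in DMSO, 175, 130 and 131 after genistein and 361 and 393 after BMP6. It rose by 2.43 ± 0.34 after BMP6 (limma adjusted p = 0.0260), and its genistein change of 1.05 ± 0.30 did not pass (limma adjusted p = 0.0592). For both genes every genistein library lay between the DMSO and the BMP6 libraries. The share of all tested genes with this order was not computed. Over the fits without 1 library, 0 to 2 of the list rose after BMP6. The BMP6 rise lost the threshold without DMSO 2, DMSO 3, genistein 3 or BMP6 1 for SPP1, and without those or genistein 1 for HSD17B2, with limma adjusted p up to 0.13 and 0.153 over all alternatives. The SPP1 difference between treatments passed in 4 of 15 alternatives (limma adjusted p up to 0.164).

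**Figure D3:**
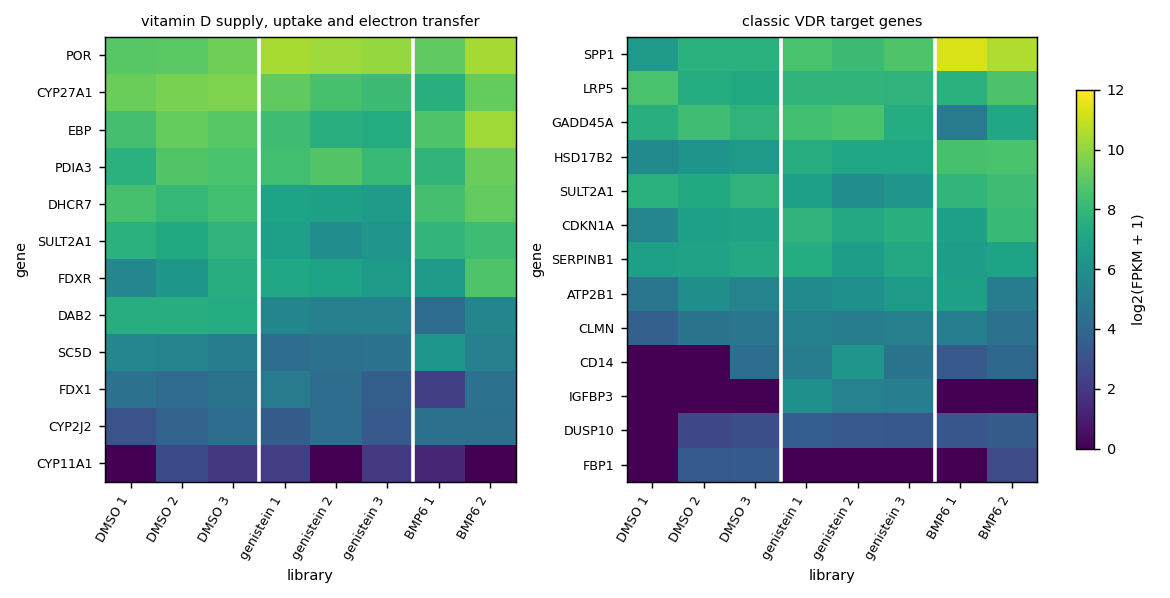
Levels, log2(FPKM + 1), of the tested genes of vitamin D supply, uptake and electron transfer (left) and of textbook VDR targets (right) in each library, ordered by mean FPKM, with white lines between DMSO, genistein and BMP6. DHCR7, SULT2A1 and DAB2 are lower after genistein than in DMSO, SPP1 and HSD17B2 are highest after BMP6, and IGFBP3 is above 0 in the genistein libraries.

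Transcripts of the proteins that VDR and RXR recruit to DNA all met the requirement of 1 FPKM in 2 libraries. Some were low: KAT2B was listed at 0 in 6 libraries, TBL1XR1 in 2 and NCOA2 in 1. Of the 18 coactivators, corepressors and chromatin proteins, none passed after genistein or after BMP6 in limma (3 and 2 at an unadjusted p under 0.05), where 12.1% and 0.837% of all tested genes passed. NCOR1, a corepressor and by mean FPKM the most abundant of the list, stood at 310 to 630 FPKM in DMSO, 121 to 215 after genistein and 85.8 and 157 after BMP6. Its log2 changes were -1.39 ± 0.40 (limma adjusted p = 0.0596) and -1.93 ± 0.45 (limma adjusted p = 0.0925). GPS2 and SMARCA4, next in abundance, had log2 changes of -0.99 and -0.11 after genistein, neither of which passed. Fits without 1 DMSO or genistein library also called none of the 18 after either treatment. Among fits without 1 library, calls appeared only where 1 BMP6 library was left, and those are not counted here.

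Among 13 tested nuclear receptors that also pair with RXR, 1 rose and 1 fell after genistein and none passed after BMP6 in limma (2 at an unadjusted p under 0.05). Over all tested genes 6.11% rose and 5.96% fell after genistein, so this count is near the background. PPARG, a receptor of fat storage genes, rose from 43.3 ± 7.62 to 112 ± 30.2 FPKM (SD, n = 3 each; limma adjusted p = 0.0345). NR1I2, the xenobiotic receptor PXR, fell from 46.0 ± 4.28 to 14.2 ± 3.29 FPKM (limma adjusted p = 0.0281). Neither call survived the loss of any single DMSO or genistein library (limma adjusted p up to 0.121 and 0.105 over all alternatives). The count of genes higher after genistein moved in fits that left 1 BMP6 library, and those counts are not given. Of 8 tested genes of hormonal control of the hydroxylases, FGFR2 fell after genistein, from 2.16 to 2.29 FPKM in DMSO to a listed 0 in all genistein and BMP6 libraries (limma adjusted p = 0.0388 after genistein, 0.134 after BMP6). It was 1 of 8, where 5.96% of all tested genes fell after genistein and 0.498% after BMP6. FGFR2 met the requirement of 1 FPKM in 2 libraries only through DMSO, so only a fall could be called. The FGFR2 call was lost without DMSO 2, DMSO 3 or any genistein library (limma adjusted p up to 0.145 over all alternatives). In fits that left 1 BMP6 library the count of falls in this list also moved. The parathyroid hormone receptor gene PTH1R, the FGF23 co-receptor gene KL and the calcium sensor gene CASR were at 0 in every library.

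The tested genes whose levels over the 8 libraries were most like each member are given as a description, since the points share libraries and groups. For CYP24A1 they included MYH9, a nonmuscle myosin heavy chain (Pearson r = 0.991 of log2(FPKM + 1)), and SLC29A3, a nucleoside transporter (0.971). MYH9 stood at 317 to 388 FPKM in DMSO, 527 to 577 after genistein and 693 and 782 after BMP6, the same order of groups over a much smaller range. For VDR they were MOB3C (r = 0.998), SLC51A (0.981) and WDR54 (0.981), all 3 listed at 0 in DMSO 1 and genistein 2 as VDR was. For CYP27B1 they were HEMK1, ST14 and PYCARD (0.963 to 0.972), for RXRA VAMP8, BNIP3 and ICAM3 (0.959 to 0.988), and for RXRB EXT2, HDAC3 and VPS33B (0.957 to 0.97). HDAC3, a corepressor deacetylase, is also on the list of coregulators.

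The dependence of the CYP24A1 changes on the choice of libraries and settings is plotted for all 3 comparisons.

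**Figure D4:**
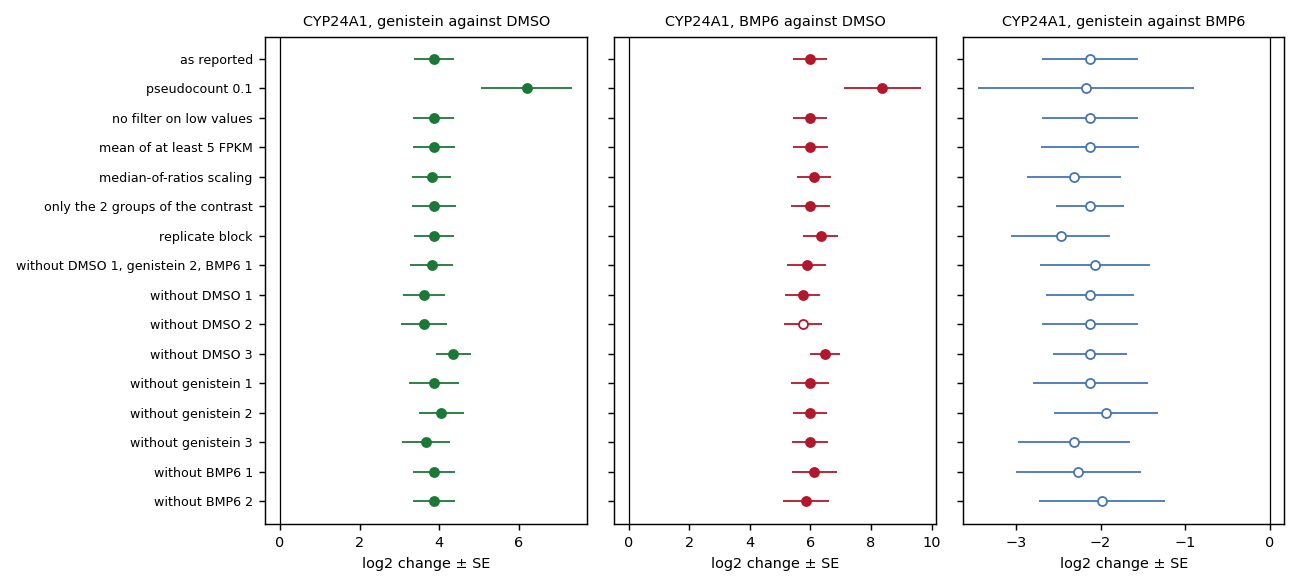
CYP24A1 log2 change (x axis, ± SE) as reported and under 15 alternative fits (rows), for each treatment against DMSO and for the treatments against each other; filled points passed an adjusted p of 0.05. All values in a panel share 1 sign, the pseudocount of 0.1 gives the largest changes against DMSO (6.20 and 8.38), and the BMP6 rise misses the threshold without DMSO 2 (5.74).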

How the data were processed

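Each deposited file holds the authors' FPKM per gene with an interval and a status. The submitters' processing notes name TopHat 1.1.0 and Bowtie for reads, Cufflinks 1.0.3 with Cuffdiff, and hg18, without settings. No read counts were recovered (Spearman correlation of the lowest FPKM values with transcript length from -0.0940 to 0.0898), so depth is unknown and no counting intervals were computed. Symbols came from a table of gene names. File starts were raised by 1 base.

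The 12661 genes that reached 1 FPKM in 2 or more libraries were tested on log2(FPKM + 1) with limma 3.58.1 (R 4.3.3), all 8 libraries in 1 fit with a variance trend (5 residual and 3.22 prior degrees of freedom). P-values are two-sided and Benjamini-Hochberg adjusted over all tested genes. The fit was tested on simulated data. Exact permutation tests used SciPy 1.17.1. The 31-base comparison used both strands.

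Members, lists and the naming rule (members, HAMP, per list and comparison up to 4 genes past the threshold by p or, with none, the 3 most abundant, and the 3 most similar genes per member) were chosen with earlier results of these data known. Of 133 listed symbols 127 were matched. Some genes that the lists or the rule would include are not reported here. Alternatives were other pseudocounts, filters, scaling, fits of 2 groups, a replicate block and fits without libraries.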

Additional observations from a re-analysis of the deposited data

How the results depend on the processing

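The count of members past the threshold was 1 after genistein and 0 between treatments in every alternative, and 1 after BMP6 except without DMSO 2; over the fits without 1 library it ranged from 0 to 1. Nothing in the labels says that replicate numbers pair the libraries. Correlations of deviations between same-numbered libraries were -0.146, -0.0652 and -0.00459 for DMSO and genistein. They were 0.0554 and 0.00142 for DMSO and BMP6, and -0.247 and 0.286 for genistein and BMP6. With 2 or 3 libraries in a group, these values cannot settle whether the numbers pair. With the replicate block CYP24A1 changed by 3.86 after genistein and 6.33 after BMP6 (limma adjusted p = 0.0269 and 0.0345), and the block changed no member's call. Of the named genes outside the members, HAMP kept its calls with it and IGFBP3 its call against DMSO. It ended the genistein calls of DAB2, DHCR7, SULT2A1, PPARG, NR1I2, FGFR2, SOX9, LYZ, CD68 and TTR, the BMP6 calls of DAB2, SPP1 and HSD17B2, and those of DHCR7, SPP1 and IGFBP3 between treatments (IGFBP3 limma adjusted p = 0.0551). With it, calls over all genes went from 1527 to 176 higher and 238 lower after genistein and from 106 to 3 and 1 after BMP6.

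Members that did not pass changed sign in some alternatives, at limma adjusted p of 0.329 or more. For CYP27B1 the log2 change with a pseudocount of 0.1 was 0.49 after genistein and 0.46 after BMP6, and between treatments it was -0.0667 with median-of-ratios scaling, -0.0387 with the replicate block and -0.91 without DMSO 1, genistein 2 and BMP6 1. Leaving out those 3 libraries gave -0.23 for RXRA and -0.15 for RXRB after genistein and -0.31 for VDR after BMP6. Median-of-ratios scaling, which moved the median of all genes by -0.10 after genistein and -0.15 between treatments, gave -0.11 for RXRA and -0.0500 for RXRB after genistein and -0.00924 for RXRB between treatments. Over the fits without 1 library, changes after genistein ranged from -1.06 to 0.39 for CYP27B1, -0.18 to 0.15 for RXRA and -0.25 to 0.36 for RXRB. After BMP6 they ranged from -1.09 to 0.43 for CYP27B1, -0.36 to 0.62 for VDR, -0.0161 to 0.333 for RXRA and -0.44 to 0.17 for RXRB, and CYP27B1 ranged from -0.60 to 0.65 between treatments. The cause was not tested. A filter at a mean of 5 FPKM removed CYP27B1 and VDR. Fits without a BMP6 library assume that the lone one varies like the other groups.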

Other observations

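Of the 4 nearest genes to CYP24A1 in the tables, those that were tested did not rise past the threshold after either treatment. Over all tested genes 6.11% rose after genistein and 0.34% after BMP6, so the lack of a rise among so few genes is near the background. PFDN4, a prefoldin subunit gene 33978 bases away in hg18, stood at 182 to 552 FPKM in DMSO, 128 to 347 after genistein and 71.7 and 448 after BMP6, and did not pass (log2 changes -0.54 and -0.79, limma adjusted p = 0.649 and 0.614). BCAS1, 82904 bases away on the other side, stood at 23.4, 16.7 and 14.5 FPKM in DMSO, 1.08, 0 and 0 after genistein and 10.4 and 10.5 after BMP6. It fell by 3.88 on the log2 scale after genistein (limma adjusted p = 0.00457), where 5.96% of all tested genes fell. Its BMP6 change of -0.72 did not pass (limma adjusted p = 0.462). The genistein level was below the BMP6 level by a log2 difference of -3.17 (limma adjusted p = 0.0265). DOK5 was listed at 0 in every library and was not tested, and ZNF217 did not pass after either treatment.

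MARCHF9, 2429 bases from CYP27B1, fell by 2.16 after genistein (limma adjusted p = 0.0459), and METTL1, on the other side, did not pass (log2 change 0.78). COL11A2, 1089 bases from RXRB, fell by 1.79 after genistein (limma adjusted p = 0.0430), from 3.31 to 4.49 FPKM in DMSO to 0 to 0.956 FPKM. SLC39A7, the nearest gene to RXRB, did not pass (log2 change -0.73 after genistein, limma adjusted p = 0.187). The 4 nearest genes to each member were taken by distance, and MARCHF9 and COL11A2 are named for their calls. The other tested neighbours of CYP27B1, RXRB, CYP2R1, VDR, RXRA and GC did not pass after either treatment. Over all tested genes 5.96% fell after genistein.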
